A study of Mus musculus with 6 samples.

Results

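Translation initiation and elongation factor genes were examined across mouse kidney samples from animals given antimalarial drugs. Members were all array probes named for a single gene whose symbol begins with Eif1 to Eif6, Eef1 or Eef2, plus Tpt1. The rule gave 128 probes of 55 genes, out of 15114 probes of 9107 genes with a single gene name on an array of 23040 spots. They comprised 31 probes of 6 elongation factor genes, 80 probes of 39 initiation factor genes, 15 probes of 9 regulator genes and 2 probes of Tpt1. The symbol rule also took in Eif2c5, an Argonaute gene with an older Eif2-type symbol, which was counted with the initiation factors.

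Translation initiation brings the small ribosomal subunit, the initiator tRNA and the messenger RNA together. eIF2 carries the initiator tRNA, eIF2B recharges eIF2 with GTP, eIF3 is the large scaffold on the small subunit, and the eIF4 group recognises the cap and unwinds the leader. In elongation, eEF1A (Eef1a1, or Eef1a2 in muscle and neurons) delivers aminoacyl-tRNA to the ribosome, the eEF1B subunits (Eef1b2, Eef1d, Eef1g) recharge eEF1A with GTP, and eEF2 moves the ribosome along the message. Elongation factors and Tpt1 belong to the mRNAs with a 5′ terminal pyrimidine tract, whose translation is tied to mTOR signalling, and Eef1a1 mRNA is among the most abundant in most tissues.

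Male Swiss albino mice aged 8 to 10 weeks received amodiaquine at 120 mg/kg, SP (sulfadoxine at 300 mg/kg with pyrimethamine at 15 mg/kg), or amodiaquine+SP at the same doses. Controls received the vehicle, DMSO, and kidneys were taken at 24 h, with 4 mice in a group. Each treatment was compared directly with vehicle RNA on 2 two-colour arrays, labelled as a dye swap: treated RNA in Cy5 on replicate 1 and in Cy3 on replicate 2. The labels do not say whether the arrays held single animals or pools, so the spread between arrays may be technical.

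Several features of the files limit what follows. Of the Cy3 foreground values of replicate 2, 36.9% for SP and 41.9% for amodiaquine+SP were also present in replicate 1, against 0.0911% for amodiaquine. Each of those 2 pairs was therefore counted as 1 scan, which leaves 4 scans and 8 readings (scan by dye). Of 48 blocks, 24 and 30 were in register with the other scans on the amodiaquine arrays, 38 on the SP scan and 32 on the amodiaquine+SP scan. Only these blocks were used, apart from the alternative in which displaced blocks were moved back. Across the 791 probes with signal in both dyes on both amodiaquine arrays, log2 Cy5 over Cy3 correlated at 0.850 between the arrays, although a dye swap was labelled, so values are given both turned by the labels and not turned. For the SP and amodiaquine+SP scans the direction of treatment is not settled, and Cy5 over Cy3 is given. By mean brightness rank (explained with the results), 7 proximal tubule marker probes had a median of 0.744 and a range of 0.352 to 0.964. Of 10 proximal tubule genes listed, 5 were on the array. The 2 thick ascending limb probes, Umod and Slc12a1, ranked 0.956 and 0.735. Markers of other cells and tissues were not all dim. The 9 fibroblast and smooth muscle probes had a median of 0.490 with Vim up to 0.977. For 5 leukocyte probes it was 0.361 with Lyz2 at 0.861, and for 4 probes of other tissues 0.629 with the liver gene Apoa1 at 0.944. The 7 endothelium probes had a median of 0.365, and the 4 distal tubule and collecting duct probes 0.541. The podocyte probe stood at 0.605 and the red cell probe at 0.222.

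The sequences around the annotated start sites of 2 elongation factors, Tpt1 and an initiation factor are shown as context for genes described at length. They are not the sequences spotted on the array. RefSeq windows of GRCm38.p6 were matched for 44 of the 55 member genes. Each line gives 40 bases before and 30 bases from the start, with the letters TATAA in capitals where present.
Eef1a1: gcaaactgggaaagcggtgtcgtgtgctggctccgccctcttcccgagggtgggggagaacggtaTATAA
Eef2: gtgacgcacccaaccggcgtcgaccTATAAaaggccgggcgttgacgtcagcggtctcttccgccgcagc
Tpt1: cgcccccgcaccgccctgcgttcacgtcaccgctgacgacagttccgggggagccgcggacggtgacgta
Eif3l: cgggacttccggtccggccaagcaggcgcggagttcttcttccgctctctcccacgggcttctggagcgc

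The Eef1a1 window lies at chr9:78481695-78481764 on the minus strand. The Eef2, Tpt1 and Eif3l windows lie on the plus strand at chr10:81176591-81176660, chr14:75845216-75845285 and chr15:79075183-79075252. In Eef1a1 the letters fall after the annotated start, and in Eef2 before it. TATAA, searched on both strands from 250 bases before to 50 bases after the start, was present in 6 of 59 member windows (10.2%) and in 24.9% of all 32851 RefSeq windows. A match is a description of these letters and not a measured site.

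Elongation factor probes were brighter than initiation factor probes in every reading, and Eef1a1 accounted for much of the gap. Brightness was expressed as a rank among named spots of the same scan and dye, from 0 for the dimmest to 1 for the brightest, because signals of different probes are not comparable as levels. The median rank of the elongation factor probes was 0.913 ± 0.078 (mean ± SD of 8 readings; 0.763 to 0.989), and that of the initiation factor probes 0.536 ± 0.064 (0.468 to 0.629). The difference was 0.376 ± 0.089, with the elongation factors higher in 8 of 8 readings. No p-value is given, because probes are not replicates and the block order behind the names had been chosen on the brightness of ribosomal protein probes.

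**Figure D1:**
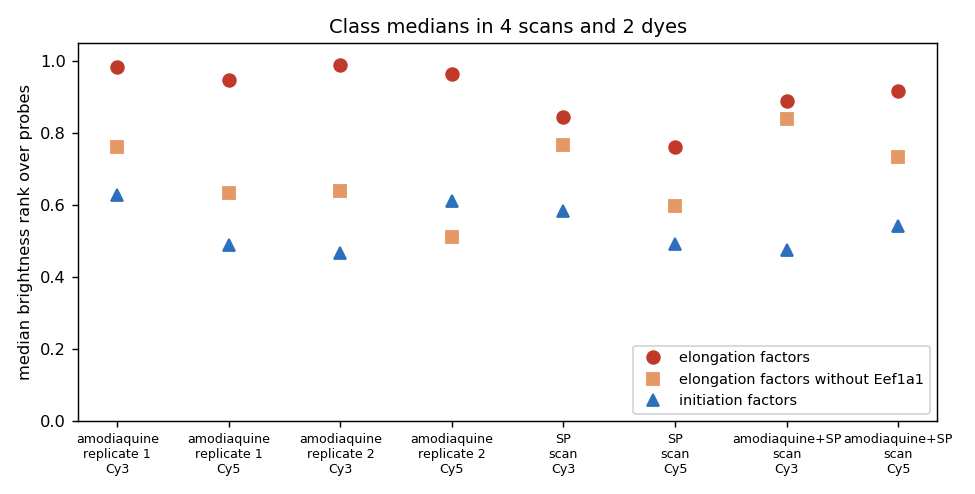
Median brightness rank (0 to 1) over the probes of each class in the 8 readings, for elongation factors (circles), elongation factors without Eef1a1 (squares) and initiation factors (triangles). Circles lie above triangles in all 8 readings, and squares lie above triangles in 7.

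The gap was largest in Cy3 of amodiaquine replicate 2, at 0.989 against 0.468, and smallest in Cy3 of the SP scan, at 0.845 against 0.585. The blocks in register differed, so the class held different probes in each scan. Probes other than Eef1a1 were 2 of 15 elongation factor probes on amodiaquine replicate 2 and 14 of 26 in the SP scan. The size of the gap therefore cannot be compared between scans. With the Eef1a1 probes left out, the difference fell to 0.149 ± 0.128 (−0.099 to 0.364), above 0 in 7 of 8 readings. It rests on 4 elongation factor probes on amodiaquine replicate 1 and 2 on replicate 2, where the lowest value arose. The SP scan had 14 such probes and the amodiaquine+SP scan 12, and both dyes of a scan read the same spots. Counting each gene once, by the mean over its probes, gave a difference of 0.212 (−0.096 to 0.428), above 0 in 7 of 8 readings. The median rank of regulator probes averaged 0.473 over the 8 readings.

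**Figure D2:**
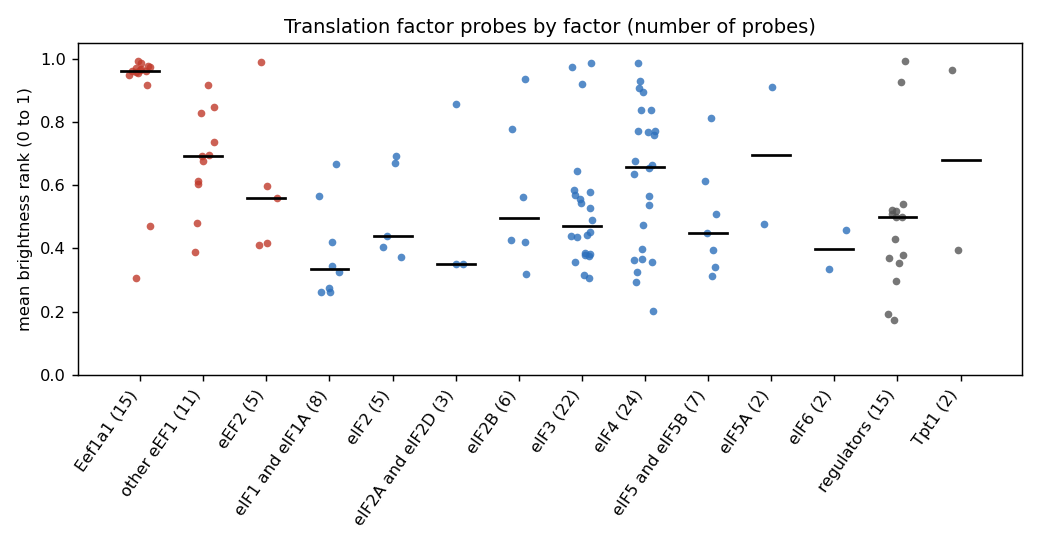
Mean brightness rank (0 to 1) of each member probe over its readings, grouped by factor, with the number of probes in parentheses and a bar at the median. The Eef1a1 probes lie near the top except for 2 of 15, while the 22 eIF3 probes spread from 0.305 to 0.987.

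Eef1a1, which delivers aminoacyl-tRNA, was represented by 15 probes in 12 blocks. Mean ranks of 13 of them lay between 0.917 and 0.993. The other two, in blocks 24 and 25, had mean ranks of 0.307 and 0.471, and none of their readings exceeded 0.744. For the brighter probe of block 2, which was in register in every scan, the ranks in Cy3 and Cy5 were 0.990 and 0.976 on amodiaquine replicate 1, 0.952 and 0.980 on replicate 2, 0.983 and 0.950 in the SP scan, and 0.990 and 0.971 in the amodiaquine+SP scan. These ranks lie close to the upper end of the scale and hide differences in signal: the intensity of this probe ran from 4059 in Cy3 to 19847 in Cy5 of amodiaquine replicate 2.

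The background-corrected intensities of the 13 bright Eef1a1 probes, in blocks in register, had medians of 14983 in Cy3 and 13400 in Cy5 on amodiaquine replicate 1 (10 probes). On replicate 2 (11 probes) the medians were 14255 and 19847, in the SP scan (10 probes) 9164 and 5178, and in the amodiaquine+SP scan (9 probes) 14234 and 6999. All initiation factor probes in register (42 to 67 in a reading) had medians between 162 and 542. The Eef1a1 probes here were kept for their brightness, with 2 dim ones left out, and the initiation factor probes were not. The distance between the sets is thus partly fixed by that choice. These are spot intensities in arbitrary scanner units, read before any normalisation.

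By the mean absolute difference over 8 ranks, the probe most like the block 2 Eef1a1 probe among 3149 others was the second Eef1a1 probe of that block, at 0.0046. Probes of Igf2bp1, Ftl1, Igf1r and Ppp1r9a followed, at 0.0049, 0.0058, 0.0059 and 0.0074. All 5 had mean ranks between 0.972 and 0.980, so the measure picks spots of equal brightness.

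The remaining elongation factors were less uniform. Eef1a2, the muscle and neuron form of eEF1A, had a single probe of mean rank 0.389, read in 4 readings. Its ranks were 0.157 in Cy3 and 0.753 in Cy5 of the SP scan, and 0.155 and 0.489 in the amodiaquine+SP scan. Ranks of 0.157 and 0.155 are those shared by spots with a corrected intensity of 0. Whether cDNA of one eEF1A gene hybridised to probes of the other was not tested.

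The eEF1B subunits lay in between. Eef1g had 7 probes with mean ranks from 0.482 to 0.918, Eef1b2 had 2 probes at 0.693 and 0.850, and the Eef1d probe stood at 0.696. The brightest Eef1g probe, in block 23, was read only in the amodiaquine+SP scan, at 0.891 in Cy3 and 0.946 in Cy5. The Eef1d probe was read only in the SP scan.

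Eef2, the translocase, had 5 probes of which 1 was bright. The probe of block 14 ranked 0.990 and 0.991 in Cy3 and Cy5 of the SP scan and 0.993 and 0.989 in the amodiaquine+SP scan. The other four had mean ranks from 0.410 to 0.598. Tpt1, a small protein bound to the elongation machinery, showed the same split: its block 15 probe averaged 0.965 over 6 readings and its block 13 probe 0.395 over 4. Probes of one gene thus differed more in brightness than the class medians did.

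Among initiation factors, the brightest probe was one for Eif3a, the largest eIF3 subunit, at a mean rank of 0.987 in block 11. It read 0.947 and 0.989 on amodiaquine replicate 2, 0.996 and 0.998 in the SP scan, and 0.996 and 0.997 in the amodiaquine+SP scan, in Cy3 and Cy5. The lowest of the 8 Eif3a probes averaged 0.316. Eif4a2, a helicase of the cap-binding complex, followed at 0.986 in block 44, with a second probe at 0.773. Eif3l, another eIF3 subunit, averaged 0.974 in block 2 and 0.377 at its other probe. These probes were as bright as those of Eef1a1.

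The rest of the 10 brightest began with Eif2b3 (an eIF2B subunit) at 0.937, Eif4g3 (a scaffold) at 0.930 and Eif3h at 0.920. Then came Eif5a (a hypusinated factor that also aids elongation) at 0.913, Eif4g2 at 0.908 and 0.895, and Eif2d at 0.856. The Eif2d value rests on 2 readings, both of the SP scan. Eif4g2, a cap-independent relative of eIF4G, was the most uniform of the genes with 5 or more probes, with all 5 of its probes between 0.760 and 0.908. The 5 dimmest probes were for Eif4b at 0.202, Eif1ad at 0.263, Eif1a at 0.263, Eif1ax at 0.275 and Eif4h at 0.293. Most of their readings were at or near a corrected intensity of 0.

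By complex, the median of the probe means was highest for eIF5A (0.696, 2 probes) and eIF4 (0.659, 24 probes). It was 0.495 for eIF2B, 0.472 for eIF3, 0.451 for eIF5 and eIF5B, 0.440 for eIF2, 0.398 for eIF6, 0.352 for eIF2A and eIF2D, and 0.334 for eIF1 and eIF1A. Within eIF4 the probes ranged from 0.202 to 0.986, wider than the distance between any of these medians.

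Among regulators, Eef1akmt1, a lysine methyltransferase of eEF1A, had one probe at 0.993 and another at 0.354. Eif2ak1, the haem-regulated eIF2 kinase, ranked 0.929. The lowest regulator was a probe for Eif4enif1, the eIF4E transporter, at 0.173.

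Dye ratios could be measured for a minority of members. A signal-to-noise ratio of at least 2 in both dyes was met by 14 member probes on amodiaquine replicate 1, 18 on replicate 2, 19 in the SP scan and 22 in the amodiaquine+SP scan. In all, 31 of 128 probes had a ratio in some scan: 15 elongation, 13 initiation and 2 regulator probes and 1 of Tpt1. The filter keeps bright spots, so these are not representative of all members. On amodiaquine replicate 1 the recorded Cy3 background was 0 at 7079 spots, where a signal-to-noise ratio has no meaning, and 5 of the 14 member probes there passed in this way.

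On the amodiaquine arrays the test could not show whether members changed. The dye ratios of the arrays ran the same way, so turning them by the labels placed that shared difference in the error. On simulated data with such a shared difference the fit called none of the altered probes, so the absence of calls below carries no information on the drug. The limma fit tested 791 probes on ratios turned by the labels, of which 11 were members (7 of Eef1a1 and 1 each of Eif3l, Eif3h, Eif5a and Eif4g2). At an adjusted p under 0.05 it called 0 members and 0 probes overall (0%), 0 had an unadjusted p under 0.05, and the smallest unadjusted p of a member was 0.520, for Eif4g2. The median log2 ratio of the members was −0.07, with a range of −0.32 to 0.17, beside 0.05 over all 791 probes. The standard errors were wide, with a median of 0.50 over the members, and reached 1.02 for an Eef1a1 probe. With loess over the whole array the members' median was −0.20, and on the authors' deposited values it was 0.03, of the other sign. The Eef1a1 probes of block 2 moved most, from −0.25 and −0.31 to −1.21 and −1.28 with loess over the whole array. On the authors' values they read −0.96 and −1.04. The Eif3l probe of the same block moved with them, from −0.05 to −1.01 and −0.77. Leaving out spots with a background of 0 kept 6 members among 400 tested probes, with a median of −0.10 and 0 called.

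Array by array, turned by the labels, the median of the 11 members was −0.34 on replicate 1 and 0.30 on replicate 2. Those medians have opposite signs. The Eif4g2 probe of block 35 read −0.29 and 0.35 as Cy5 over Cy3 on replicates 1 and 2, which turned gives −0.32 ± 0.45 (SE). It was the only one of the 11 whose dye ratio changed sign between the arrays. Its spot on replicate 1 had a recorded Cy3 background of 0. The turned value of this probe varied with the processing. Whole-array loess gave 0.003, and the authors' values gave 0.40, of the other sign. It stayed below 0 with the background subtracted (−0.34) and with no background correction (−0.11).

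**Figure D3:**
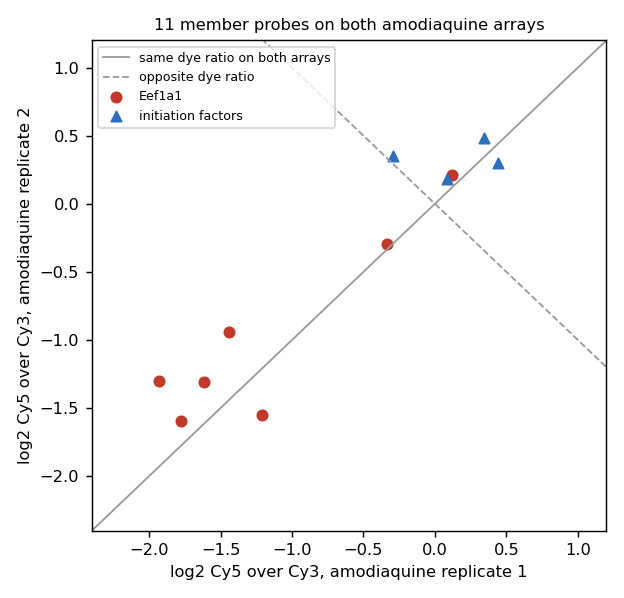
Log2 Cy5 over Cy3 of the 11 member probes on amodiaquine replicate 1 (horizontal) and replicate 2 (vertical), with the line of equal ratios (solid) and of opposite ratios (dashed). The 7 Eef1a1 probes (circles) lie near the solid line, 5 of them at −0.94 or lower on both arrays.

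Not turned, the same fit called 386 of 791 probes (48.8%), and 26.9% were called lower in Cy5. Of the members, 5 were called, all for Eef1a1 and all lower in Cy5, with limma adjusted p between 0.000203 and 0.00151. One probe of block 25 read −1.61 and −1.31 on replicates 1 and 2, and the fit gave −1.46 ± 0.18 (SE). The second probe of block 2 read −1.93 and −1.30, which gave −1.62 ± 0.20 (SE). The called probes of blocks 30 and 35 had a recorded background of 0 on replicate 1. Without such spots, 150 of 400 probes (37.5%) were called, and 3 of 6 members, again of Eef1a1 and lower in Cy5. Both arrays thus carried the lower Cy5 over Cy3 of these probes after loess within each block. Cy5 is nevertheless labelled as treated RNA on replicate 1 and as vehicle RNA on replicate 2. Intensities before normalisation were not always lower in Cy5. On replicate 2 the second probe of block 2 had 5086.48 in Cy3 and 19924.1 in Cy5. The called probe of block 25 had 16349.1 and 12907.6 there.

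The dye ratio of Eef1a1 was low in Cy5 in all 4 scans. These are ratios after loess within each block, so they are relative to the other spots of the block and not to the raw dyes. The median over Eef1a1 probes was −1.61 ± 0.78 (SD, 9 probes) on amodiaquine replicate 1, −1.31 ± 0.67 (10 probes) on replicate 2, −1.07 ± 0.49 (9 probes) in the SP scan and −0.98 ± 0.34 (8 probes) in the amodiaquine+SP scan. Initiation factor probes had medians of 0.08, 0.32, 0.03 and −0.08 in the same order. The difference of the class medians, elongation minus initiation, averaged −1.33 over the 4 scans, but it describes a single gene. Every elongation factor probe with a ratio was Eef1a1 on the amodiaquine arrays, as were 9 of 10 in the SP scan and 8 of 10 in the amodiaquine+SP scan. Without Eef1a1 the difference was −0.35, from 1 probe in the SP scan and 2 in the amodiaquine+SP scan.

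**Figure D4:**
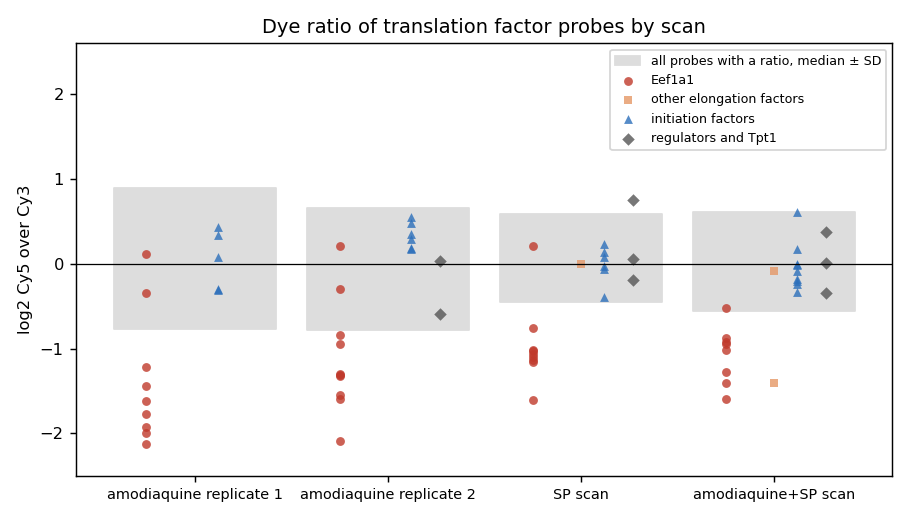
Log2 Cy5 over Cy3 of member probes in blocks in register in the 4 scans, with grey bands for the median ± SD of all probes with a ratio. Most Eef1a1 probes (circles) lie below the band in every scan, and the initiation factors (triangles) lie inside it or at its edge.

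A log2 Cy5 over Cy3 of −1 or lower was read for 7 of 9 Eef1a1 probes on amodiaquine replicate 1 (12.3% of all probes with a ratio there) and for 6 of 10 on replicate 2 (11.2% of all). It was read for 7 of 9 in the SP scan (4.52% of all) and for 4 of 8 in the amodiaquine+SP scan (4.77% of all). No initiation factor probe reached −1 in a block in register. Among named probes that are not members but ranked at least 0.9 in both dyes, 13.4%, 8.74%, 3.72% and 4.08% reached −1 in the same order of scans, and their medians lay between 0.01 and 0.10.

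The Eef1a1 probes were not all alike in ratio. The second probe of block 2 read −1.93, −1.30, −1.02 and −1.28 in amodiaquine replicates 1 and 2, the SP scan and the amodiaquine+SP scan. The block 20 probe read −2.12 on amodiaquine replicate 1, −1.14 in the SP scan and −1.40 in the amodiaquine+SP scan. A bright probe of block 25 differed from them, at 0.12 and 0.21 on the amodiaquine arrays and 0.21 in the SP scan. In the amodiaquine+SP scan its intensity was 16328.7 in Cy3 but 790.682 in Cy5. The Cy5 signal-to-noise ratio was 0.107 there, so the filter left this probe without a ratio in that scan. The block 43 probe, the brightest of the gene, read −0.34 and −0.30 on the amodiaquine arrays. Probes named for the same gene therefore disagreed by more than 1 log2 unit within a scan, and their clone sequences were not used here.

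In the SP scan, members had a median log2 Cy5 over Cy3 of −0.19 (19 probes), beside 0.07 over all 1726 probes. The highest were Eif2ak1 at 0.76, Eif3l at 0.23, the block 25 Eef1a1 probe at 0.21 and Eif1a, which helps scanning for the start codon, at 0.14. The lowest were Eef1a1 probes at −1.61, −1.15, −1.14 and −1.10. The Eif1a probe, in block 40, ranked 0.942 in Cy3 and 0.951 in Cy5 here, and 0.952 and 0.963 in the amodiaquine+SP scan. On amodiaquine replicate 2, with its block in register, its corrected intensity was 0 in both dyes. Leaving out Eef1a1 gave a median of 0.02 over 10 probes. With 1 scan there is no replicate check.

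In the amodiaquine+SP scan the median was −0.28 (22 probes), beside 0.03 over all 1487 probes, and −0.08 without Eef1a1 (14 probes). The highest were Eif3l at 0.61, Eif2ak1 at 0.38, Eif1a at 0.17 and Tpt1 at 0.01. The lowest were Eef1a1 at −1.59 and −1.40, Eef2 at −1.40 and Eef1a1 at −1.28. The Eef2 probe of block 14 read −0.01 in the SP scan, and neither reading has a replicate. Before normalisation its intensities were 14313.2 in Cy3 and 18892.5 in Cy5 of the SP scan. In the amodiaquine+SP scan they were 17461.9 and 22214.1. Cy5 was the higher in both scans, so the −1.40 is low only relative to other spots of its block.

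Some members gained a ratio only when displaced blocks were moved back. On amodiaquine replicate 1, Eif2ak1 read 1.27, Eef1b2 0.76 and Eif4g3 −1.42. The Eif2ak1 spot had a recorded Cy3 background of 0 there, so its signal-to-noise ratio, and with it the filter, had no meaning. The Eif4g3 probe read −0.06 in the SP scan and −0.18 in the amodiaquine+SP scan. The amodiaquine fit then tested 1244 probes, 14 of them members, and called 0 at an adjusted p under 0.05 (3 probes, 0.241%, had an unadjusted p under 0.05, none of them members).

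Other genes of the pathway were dimmer, by the median of the probe means, than the elongation factor probes (0.850), of which 15 of 31 are Eef1a1. They lay nearer the initiation factor probes (0.485). Across 10 lists (termination and recycling, poly(A) binding, mTOR and S6 kinase signalling, MAP kinase interacting kinases, stress response, noncanonical initiation, hypusination, selenoprotein elongation, mitochondrial factors and aminoacyl-tRNA synthetases), 49 genes were on the array with 88 probes, of median mean rank 0.456. A mean rank of at least 0.9 was reached by 8 of the 88 probes. Ranks are spread evenly from 0 to 1 in a reading, so this share is not high by itself. Bright probes were Pabpc1 (poly(A) binding) at 0.969, Rictor at 0.995, Rptor at 0.992 and Akt1s1 at 0.949 (mTOR complexes). Larp1, a repressor of terminal pyrimidine tract mRNAs, stood at 0.924, and the synthetases Rars, Iars and Sars at 0.932, 0.927 and 0.919. The Rictor and Rptor values rest on 2 readings each. Every other probe of these genes was dimmer: Rictor 0.259 to 0.361, Rptor 0.803, Larp1 0.625 and 0.689, and Pabpc1 0.254. Those of Rars read 0.878 and 0.314, of Iars 0.680 and 0.152, and of Sars 0.297 to 0.416. Stress response genes had a median of 0.400 over 6 probes, and none reached 0.9. None of these 88 probes entered the amodiaquine test.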

How the data were processed

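Foreground, local background and background-corrected intensity per spot and dye, and a signal-to-noise ratio, are as deposited by the authors, per the file headers. Per the series' design text, arrays were scanned with ImageQuant 5.0, spots were read in ArrayVision 8.0, and the log2 ratios deposited by the authors were LOWESS normalised in Avadis 4. The fold or ratio is Cy5 over Cy3 unless turned by the labelled dye.

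Probe names were placed by a fixed block order. That order had been chosen on the brightness of ribosomal protein probes. With members and ribosomal protein genes left out, brightness of same-accession probes in different blocks correlated at 0.103 under that order and 0.0020 by spot number. A block was in register when both dyes were undisplaced and correlated at 0.5 or more. Log2 ratios were computed with normexp (offset 50) and loess within blocks in limma 3.58.1 (R 4.3.3), for spots with a signal-to-noise ratio of 2 or more in both dyes. The amodiaquine test was limma's lmFit and eBayes on 2 arrays against 0, two-sided, with Benjamini-Hochberg adjustment over all probes tested. Scripts were tested on simulated data, where this test missed altered probes once both arrays shared a dye difference. Counting and figures used Python 3.11.15.

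Named are all elongation factor genes and Tpt1, and the 10 brightest and 5 dimmest initiation factor probes. Members in the amodiaquine test and the 4 highest and 4 lowest in the other scans are named too. Many Eef1a1, Eef1g and Eef2 probes are given only within a range or median, and the Eef1a1 ratios shown by block are examples. Regulators, pathway genes and the uniform Eif4g2 probes were picked out after their values were seen. The members and lists were chosen with earlier results of these data known. Array number limits the precision.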

Additional observations from a re-analysis of the deposited data

How the results depend on the processing

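The count of called amodiaquine members was 0 in every fit to turned ratios, but on simulated data that test missed altered probes, so these counts carry no information. Not turned it was 5, and 3 with background-0 spots also left out (median −0.53). The fit to all 6 files with a replicate block called 0 members and left their median at −0.07. The replicate numbers only mark the dye orientation, and the other two pairs are repeated scans, so they do not pair animals. Without either array, the amodiaquine median ranged from −0.34 to 0.30; a count without 1 array has no residual degrees of freedom and was not run. Not turned, an Eef1a1 probe of block 35 changed from 0.17 to −1.38. With names by spot number, the SP median became 0.18, the ratio difference −0.66 and the brightness difference 0.041 (above 0 in 5 of 8 readings). Without the filter on dim spots, the amodiaquine+SP median was −0.020 and the ratio difference −0.78. Leaving out Eef1a1, chosen after seeing the data, gave a ratio difference of −0.35 (2 scans) and a brightness difference of 0.149. Counting each gene once gave 0.212. Moving displaced blocks back, also added after seeing the data for the ratios, gave −1.34 and 0.353. The cause of these shifts was not tested. Only 4.67 to 9.31% of spots passed the signal filter in both dyes, which limits what the ratios can show for dim members.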
